A study of Rattus norvegicus with 12 samples.

Results

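Testis RNA of rats stressed for 21 days was compared with that of rats stressed for 14 days, the last step of a time course of restraint stress plus ice-water swimming (RS+IS). The libraries were chosen by their labels: the 3 titled RS+IS_21D and the 3 titled RS+IS_14D, which make 6 of the 12 libraries of the series. The study exposed male Sprague Dawley (SD) rats aged 8 weeks to RS+IS, in which an animal was held on its back for hours each day and then made to swim in ice water, for 3, 14 or 21 days, and sequenced whole testis after removal of ribosomal RNA. Control rats were not restrained and did not swim, but food and water were withheld from them too, so both stressed groups shared with each other, and with the controls, a daily fast. Both groups received the same daily treatment and differed in its length. The labels give an age of 8 weeks for every library and no age at sampling. If all rats started at the same age, the 21-day animals were also older when sampled, and length of stress and age cannot be told apart. The study describes controls at each time point, whereas the control libraries of the series carry no time. The labels give no genetic change in any group, and the study took 3 testicular samples per group, so n = 3 throughout. Nothing in the labels names the animal behind a library, and p-values measure the spread between these samples.

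The seminiferous epithelium renews sperm in order. Spermatogonia (SPG) divide by mitosis at the basement membrane, spermatocytes (SPC) pass through meiosis, and haploid spermatids replace histones by transition proteins and protamines, grow an acrosome and a flagellum, and stop transcription before they are shed. A cell needs several weeks to pass through this sequence in the rat, and each stage carries its own set of transcripts, so bulk testis RNA is largely a mixture of germ cell stages. In such bulk samples, fewer cells of a stage and less RNA per cell cannot be told apart.

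The question was how far the testis profile still moved between day 14 and day 21. The deposited tables list 31715 transcripts per library by identifier alone, and 578 germ cell markers of the study could be matched to them through their counts: 12 SPG, 181 SPC and 385 spermatid markers. Transcripts of a marker were summed, which gave 31512 features, and 21051 of these passed the filter on low counts, the 578 markers among them. Levels are given as CPM, counts scaled to a common library size with TMM factors. Markers of Sertoli, Leydig, immune or blood cells were not analysed here, since the identifiers could not be paired with their names.

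The 14-day libraries held 23908048 to 28416794 estimated counts and the 21-day libraries 24541844 to 28210440. Replicates differed by more than sampling noise in both groups, with a chi-square per degree of freedom of 10.6 and 20.0. The first 21-day library (replicate 1) stood apart: 488 features lay more than 1 log2 unit beyond all 5 other libraries, 404 of them above, against 112 to 145 features in each of the others. None of the 578 markers was among the 488. The second 21-day library had the lowest TMM factor, 0.962 against 1.001 to 1.019 in the others, and the largest share of its counts in the markers, 16.3% against 15% to 15.6%. Values without one of these libraries are given beside the class medians, the counts and the genes that moved with them.

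No feature passed the test between day 14 and day 21. By edgeR's quasi-likelihood test with Benjamini-Hochberg adjustment, 0 of 21051 features (percent called 0) and 0 of 578 markers had an adjusted p under 0.05, and the smallest adjusted p was 0.0898. At an unadjusted p under 0.05 there were 643 features (3.05%), 359 higher and 284 lower at 21 days. DESeq2, the tool of the study, run without the filter on low counts, called 20 of 27757 features (13 higher and 7 lower), none of them a marker. Of these 20, 6 had no count in any 14-day library and 1 had none in any 21-day library. limma voom called 3 features, and without the second 21-day library the unadjusted count was 1388.

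Most markers could be measured closely enough to bound the change. The 95% interval of the log2 fold change, from limma voom, lay within ±0.5 for 553 of 578 markers (95.7%), namely 9 of 12 SPG, 172 of 181 SPC and 372 of 385 spermatid markers. It lay within ±1 for 574 markers (99.3%). Over all features these shares were 53.3% and 78.3%. The precision followed abundance: when the features were cut into 4 equal sets by mean level, in the lowest set, 0.317 to 2.66 CPM, only 0.342% had an interval within ±0.5, against 95.6% of the set at 39 CPM and above. In that lowest set 33.3% of intervals stayed within ±1, so for most of its transcripts a 2-fold change could not be bounded at this depth.

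**Figure D1:**
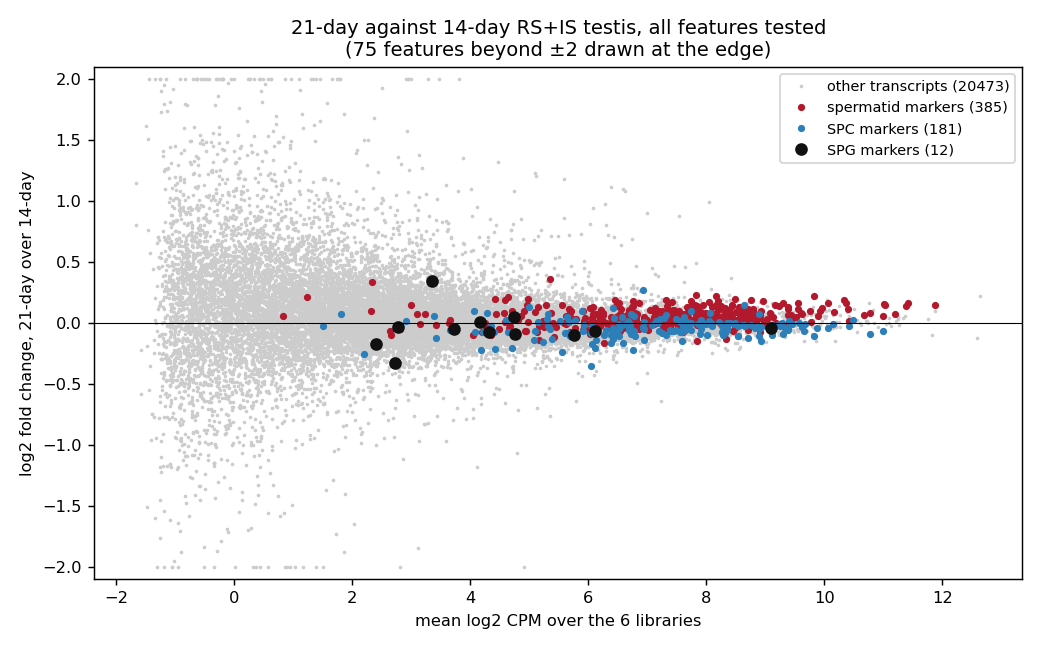
Log2 fold change of 21-day over 14-day testis (y axis) against mean log2 CPM over the 6 libraries (x axis) for the features tested. Grey points are the 20473 other transcripts and coloured points the SPG, SPC and spermatid markers. The 75 features beyond a log2 fold change of 2 in either direction are drawn at the edge. The spread narrows from left to right, with a median absolute value of 0.28 in the lowest of 4 abundance sets and 0.05 in the highest, and the markers lie between -0.36 and 0.36.

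The 3 marker classes differed little between the groups, and in each class the libraries of the groups overlapped. For SPG markers the overlap was narrow and came from the first 21-day library, at 4.523 against 4.518 in the lowest 14-day library. Averaged over the 12 SPG markers, log2 CPM was 4.53, 4.52 and 4.52 in the 14-day libraries and 4.52, 4.41 and 4.46 in the 21-day libraries, a difference of -0.06. For the 181 SPC markers it was 7.14, 7.20 and 7.13 against 7.04, 7.20 and 7.09, a difference of -0.05. For the 385 spermatid markers it was 7.24, 7.17 and 7.26 against 7.18, 7.37 and 7.25, a difference of 0.04. The SPC and spermatid differences were smaller than the SD of the 21-day group, and the SPG difference was about as large as that SD. The 21-day libraries were the more scattered, with SDs of 0.06, 0.08 and 0.10 for SPG, SPC and spermatid markers against 0.0046, 0.04 and 0.04 at 14 days. The first 21-day library had the lowest SPC mean of the 6, and the second 21-day library the highest spermatid mean together with the lowest SPG mean.

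**Figure D2:**
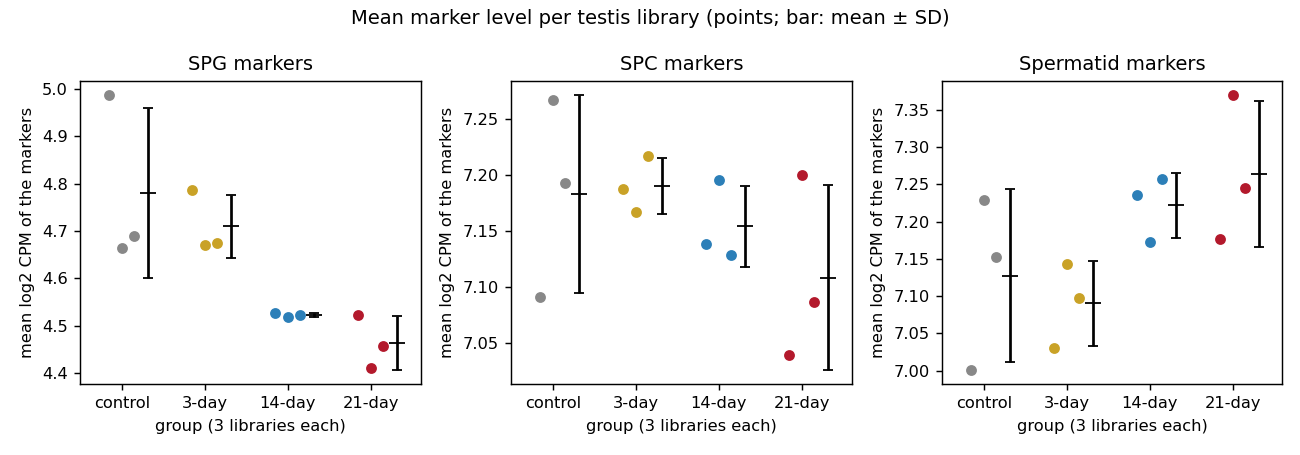
Mean log2 CPM of the 12 SPG, 181 SPC and 385 spermatid markers in each testis library. Each point is a library, grouped as control, 3-day, 14-day and 21-day RS+IS (3 libraries each), and bars give the mean ± SD; the y axes do not start at 0. The 14-day and 21-day points overlap in all 3 panels, only narrowly for SPG, with group means of 4.52 and 4.46 (SPG), 7.15 and 7.11 (SPC) and 7.22 and 7.26 (spermatid).

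Within the classes the small differences leaned to opposite sides. The median log2 fold change was -0.06 for SPG markers (range -0.33 to 0.34, 3 of 12 above 0), -0.04 for SPC markers (range -0.36 to 0.27, 44 of 181 or 24.3% above 0) and 0.04 for spermatid markers (range -0.16 to 0.36, 287 of 385 or 74.5% above 0). Over all features it was 0.0078, with 52.4% above 0. The medians were smaller than the median standard error of a single marker, 0.11 for SPG, 0.07 for SPC and 0.08 for spermatid markers. They also moved with single libraries. Without the first 21-day library the SPC median was -0.0082 and the spermatid median 0.094, and without the second they were -0.082 and 0.0014. Without the second 14-day library they were -0.014 and 0.023, and without the third 21-day library -0.0058 and 0.067. The spermatid median without the third 14-day library was 0.08, and the SPG median without the first 14-day library was -0.04. With the fit on markers alone the spermatid median was 0.02.

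Few markers passed the unadjusted threshold used by the study. Of the 578 markers, 11 (1.90%) had an unadjusted p under 0.05 in edgeR's quasi-likelihood test, 5 higher and 6 lower at 21 days, and each had an adjusted p of 0.999. These were 1 of 12 SPG markers (8.33%, lower), 6 of 181 SPC markers (3.31%, 5 lower and 1 higher) and 4 of 385 spermatid markers (1.04%, all higher), against 3.05% of all features. In this fit the share of all markers and of spermatid markers was below that background, and the share of SPC markers near it. The count depended on the tool, the libraries and the scaling. DESeq2 gave 25 markers, 18 higher and 7 lower, against 2.28% of all features. That share is over 27757 features without the filter on low counts, so it is not the same background as in edgeR. By edgeR the count was 35 (33 higher and 2 lower) without the first 21-day library and 30 (6 higher and 24 lower) without the second, 6 without the second and 5 without the third 14-day library, and 32 (21 higher and 11 lower) when counts were scaled by library totals alone. All features were at 3.76% without the first 21-day library, 6.46% without the second and 3.37% with library totals alone. They were at 2.9% without the second and 2.37% without the third 14-day library. The marker share was thus above the background without the first 21-day library and with library totals alone. With DESeq2 it was above the share of the unfiltered features, which include weakly expressed ones. Without the second 21-day library, the second 14-day library or the third 14-day library the marker share was below the background. With size factors from medians of ratios the split was 8 higher and 5 lower, against 3.03% of all features. With TMM computed without the markers it was 7 higher and 5 lower, against 3.04%.

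Among SPG markers, Stra8, the retinoic acid-induced gene required for entry into meiosis, was the one past the unadjusted threshold. Its level was 7.36, 7.01 and 7.58 CPM at 14 days and 5.87, 5.53 and 5.98 CPM at 21 days. All 3 of the 21-day libraries lay below all 3 of the 14-day libraries. The means were 7.31 ± 0.288 and 5.79 ± 0.232 CPM (SD, n = 3), a log2 fold change of -0.33 (SE 0.12, 95% interval -0.61 to -0.05, unadjusted p = 0.0242, adjusted p = 0.999 by edgeR). With DESeq2 the log2 fold change was -0.33 and the unadjusted p = 0.0789, so Stra8 was not past the threshold there. The exact two-sided permutation test gave p = 0.1, the smallest that 3 against 3 allows. Control libraries held 9.03 ± 0.280 CPM and 3-day libraries 10.2 ± 0.962 CPM.

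The Stra8 values carry a limit of their own. In every library the deposited TPM of a transcript followed from its count and effective length, to within 0.000973% for transcripts above 1 count, except for Stra8 in the 6 libraries compared here and Piwil1 in the 14-day libraries. Stra8 was deposited with 183, 198 and 181 counts at 14 days, whereas its TPM corresponded to 168, 205 and 161 counts. At 21 days the deposited counts were 147, 149 and 151 and those from TPM 146, 155 and 153. With the counts that the TPM values imply, Stra8 was no longer past the unadjusted threshold (log2 fold change -0.23, SE 0.12, unadjusted p = 0.0855, adjusted p = 0.999 by edgeR). The deposited TPM values still did not overlap, at 9.81, 10.6 and 9.73 at 14 days against 8.65, 7.65 and 8.86 at 21 days.

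The other 11 SPG markers did not reach the unadjusted threshold. Slc25a31, the ADP/ATP carrier of germ cell mitochondria, had 73.0, 71.8 and 69.8 CPM at 14 days and 64.9, 69.7 and 69.4 CPM at 21 days. Its groups did not overlap, though the margin was small (log2 fold change -0.07, 95% interval -0.21 to 0.07, unadjusted p = 0.243 by edgeR, exact permutation p = 0.1), and without the first 21-day library the log2 fold change was -0.04. Together with Stra8 it made 2 of 12 SPG markers whose groups did not overlap, both lower at 21 days, against 4.86% of all features lower without overlap. Ccnd1, cyclin D1 of the G1 phase, had the highest fold change of the class, and it came from a single library. Its level was 8.92, 8.74 and 9.38 CPM at 14 days and 16.4, 7.98 and 9.77 CPM at 21 days (log2 fold change 0.34, 95% interval -0.35 to 0.87). The 16.4 CPM belongs to the first 21-day library, without which the log2 fold change was -0.02, against 0.55 without the second. The small GTPase gene Rac1 was also highest in that library, at 32 CPM, and had a log2 fold change of 0.05, which was -0.08 without that library and 0.14 without the second.

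The remaining SPG markers overlapped between the groups. Among those of the cell cycle, Ccne2 (cyclin E2) had 60.6, 55.8 and 52.0 CPM at 14 days and 48.7, 53.2 and 55.1 CPM at 21 days. Atad5, which helps to unload the replication clamp from DNA, had 29.4, 28.2 and 27.0 CPM against 26.1, 27.1 and 25.6 CPM, and both had a log2 fold change of -0.10, which for Ccne2 was -0.05 without the first 21-day library. Cdk2ap2, a partner of CDK2, had 5.19, 5.80 and 5.65 CPM against 6.03, 4.12 and 4.59 CPM (log2 fold change -0.17, 95% interval -0.61 to 0.22), with -0.345 without the first and -0.05 without the second 21-day library. In each of these 3 genes at least 1 library of a group lay within the range of the other group. Hspa5, the chaperone BiP of the endoplasmic reticulum, stood at 563, 598 and 518 CPM against 548, 556 and 522 CPM (log2 fold change -0.04), the 21-day values lying inside the range of the 14-day group. Tex19.1, which restrains transposable elements in germ cells, had 12.1, 14.5 and 13.6 CPM against 11.7, 13.1 and 13.9 CPM (log2 fold change -0.05, and 0.02 without the first 21-day library). The co-regulator Cited1, the RNA-binding protein gene Elavl2 and the nuclear protein gene Nucks1 had log2 fold changes of 0.01, -0.03 and -0.07.

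**Figure D3:**
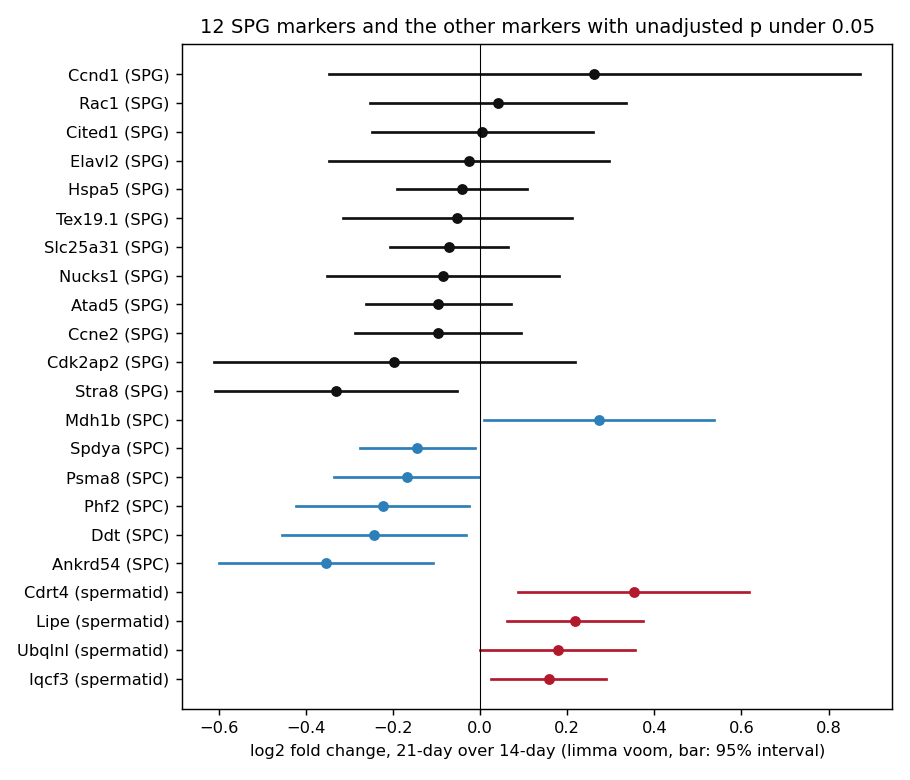
Log2 fold change of 21-day over 14-day testis with its 95% interval from limma voom (x axis) for the 12 SPG markers and the other 10 markers with an unadjusted p under 0.05 (y axis, class in brackets). Stra8 is the SPG marker whose interval, -0.61 to -0.05, does not include 0. Ccnd1 has the widest interval, -0.35 to 0.87.

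Among SPC markers, 15 of 181 had groups without overlap, 14 lower and 1 higher at 21 days. The 14 lower made 7.73% of the class against 4.86% of all features, and the 1 higher 0.552% against 3.75%. Ankrd54, an ankyrin repeat gene, had 64.0, 79.1 and 81.6 CPM at 14 days and 57.6, 55.1 and 62.1 CPM at 21 days. Every 21-day library lay below every 14-day library (log2 fold change -0.36, SE 0.10, unadjusted p = 0.00928, adjusted p = 0.999 by edgeR). Its control libraries ranged from 50.6 to 87.6 CPM, a wider span than either stressed group.

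The other SPC markers at the unadjusted threshold served the meiotic cell and its protein turnover among other roles. Spdya, an activator of CDK2 at meiotic telomeres, had 130, 132 and 128 CPM at 14 days and 112, 124 and 117 CPM at 21 days (log2 fold change -0.14, SE 0.05, unadjusted p = 0.0319 by edgeR). Psma8, the proteasome subunit of meiotic germ cells, had 103, 102 and 103 CPM against 83.3, 99.2 and 91.3 CPM (log2 fold change -0.17, unadjusted p = 0.0463 by edgeR). Neither gene overlapped between the groups, and in both the first 21-day library was the lowest. Without it the log2 fold change of Psma8 was -0.10. Ddt, a tautomerase gene related to macrophage migration inhibitory factor, had 49.1, 53.6 and 50.8 CPM against 38.2, 44.0 and 47.6 CPM (log2 fold change -0.24, unadjusted p = 0.0310 by edgeR). Phf2, a histone demethylase gene, had 108, 121 and 124 CPM against 93.4, 97.5 and 111 CPM (log2 fold change -0.22, unadjusted p = 0.0318 by edgeR). Without the first 21-day library the log2 fold change of Ddt was -0.155. Ddt did not overlap between the groups and Phf2 did, its highest 21-day library passing its lowest 14-day library. Mdh1b, a gene related to malate dehydrogenase, was the one SPC marker higher at 21 days at this threshold, with 121, 119 and 92.2 CPM against 123, 141 and 135 CPM (log2 fold change 0.27, SE 0.11, unadjusted p = 0.0470 by edgeR). The first 21-day library exceeded the first 14-day library only narrowly, and without the third 14-day library the log2 fold change was 0.16.

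Sycp3 and Piwil1, both SPC markers that the study followed up, did not differ beyond their spread. Sycp3, a component of the synaptonemal complex that pairs homologous chromosomes, had 334 CPM in each of the 3 14-day libraries and 301, 344 and 311 CPM at 21 days. The 14-day values were closer together than counting alone gives (coefficient of variation 0.0655% against 1.08%), and one 21-day library lay above and the other two below them (log2 fold change -0.06, SE 0.06, 95% interval -0.20 to 0.07, unadjusted p = 0.317 by edgeR). Without the first 21-day library the log2 fold change of Sycp3 was -0.02, and without the second it was -0.12. Piwil1, the PIWI protein gene that binds piRNAs in spermatocytes and round spermatids, had 393, 347 and 420 CPM against 323, 369 and 382 CPM, with overlapping groups (log2 fold change -0.11, 95% interval -0.32 to 0.11, unadjusted p = 0.274 by edgeR), and without the first 21-day library the log2 fold change was -0.04. Its deposited TPM at 14 days departed from the value that its counts give by -8.71%, 5.41% and -9.60%, and with the counts implied by TPM the log2 fold change was -0.04 (unadjusted p = 0.616 by edgeR).

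Among spermatid markers, 16 of 385 had groups without overlap, 15 higher and 1 lower (Zdhhc19, a palmitoyltransferase gene) at 21 days. The 15 higher made 3.90% of the class against 3.75% of all features, and the 1 lower 0.260% against 4.86%. Cdrt4 had 37.1, 36.2 and 34.4 CPM at 14 days and 38.3, 49.7 and 50.0 CPM at 21 days (log2 fold change 0.36, SE 0.11, unadjusted p = 0.0122, adjusted p = 0.999 by edgeR). Lipe, which encodes hormone-sensitive lipase, had 272, 252 and 279 CPM against 301, 333 and 297 CPM (log2 fold change 0.22, SE 0.07, unadjusted p = 0.0128, adjusted p = 0.999 by edgeR). In Cdrt4 the first 21-day library stayed close to the 14-day group while the other two stood well above it, and in Lipe the second 21-day library was the highest. Lipe was at 271 ± 28.7 CPM in controls and 225 ± 17.1 CPM at 3 days, so its 14-day level was close to that of the controls.

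The other 2 spermatid markers at the unadjusted threshold were highest in the second 21-day library. Iqcf3, an IQ motif gene, had 1297, 1240 and 1241 CPM at 14 days and 1367, 1505 and 1335 CPM at 21 days (log2 fold change 0.16, unadjusted p = 0.0302 by edgeR). Ubqlnl, a ubiquilin-like gene, had 476, 447 and 484 CPM against 484, 585 and 522 CPM (log2 fold change 0.18, unadjusted p = 0.0486 by edgeR). Iqcf3 did not overlap between the groups, and Ubqlnl did only just. Without the second 21-day library the log2 fold change of Ubqlnl was 0.11. When each of the 6 libraries was left out in turn, Ankrd54, Cdrt4 and Lipe kept an unadjusted p under 0.05 in 6 of 6 fits. Stra8, Iqcf3 and Mdh1b kept it in 3, Ddt and Phf2 in 2, and Psma8, Spdya and Ubqlnl in 1, and all 11 kept their direction in 6 of 6. The kept direction adds no evidence, since the 11 were chosen on these same libraries. A gene whose groups do not overlap could hardly change direction with 1 library left out. With all 12 libraries in one fit, edgeR gave Ankrd54, Phf2, Mdh1b, Iqcf3 and Ubqlnl unadjusted p-values of 0.0848, 0.0733, 0.0995, 0.0920 and 0.0696. Stra8, Cdrt4, Lipe, Psma8, Ddt and Spdya stayed under 0.05 in that edgeR fit, at 0.00757, 0.00805, 0.0238, 0.025, 0.0353 and 0.036. Psma8 was at an unadjusted p of 0.0520 with size factors from medians of ratios and 0.0588 with TMM computed without the markers.

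The transition proteins, which take the place of histones in elongating spermatids before protamines do, did not separate the groups. Tnp1 had 2674, 2319 and 2654 CPM at 14 days and 2639, 3010 and 2724 CPM at 21 days (log2 fold change 0.13, SE 0.08, 95% interval -0.04 to 0.31, unadjusted p = 0.126 by edgeR). Tnp2 had 1524, 1421 and 1846 CPM against 1456, 1966 and 1567 CPM (log2 fold change 0.06, SE 0.13, unadjusted p = 0.665 by edgeR). Both were highest in the second 21-day library, and the groups overlapped in both. The log2 fold change of Tnp1 was 0.08 without the second 21-day library and 0.07 without the second 14-day library. That of Tnp2 was -0.07 without the second 21-day library, 0.15 without the first and 0.11 without the third, and 0.04, -0.02 and 0.19 without the first, the second and the third 14-day library. At 3 days Tnp1 stood at 1858 ± 46.3 CPM, below each of the 6 later libraries.

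**Figure D4:**
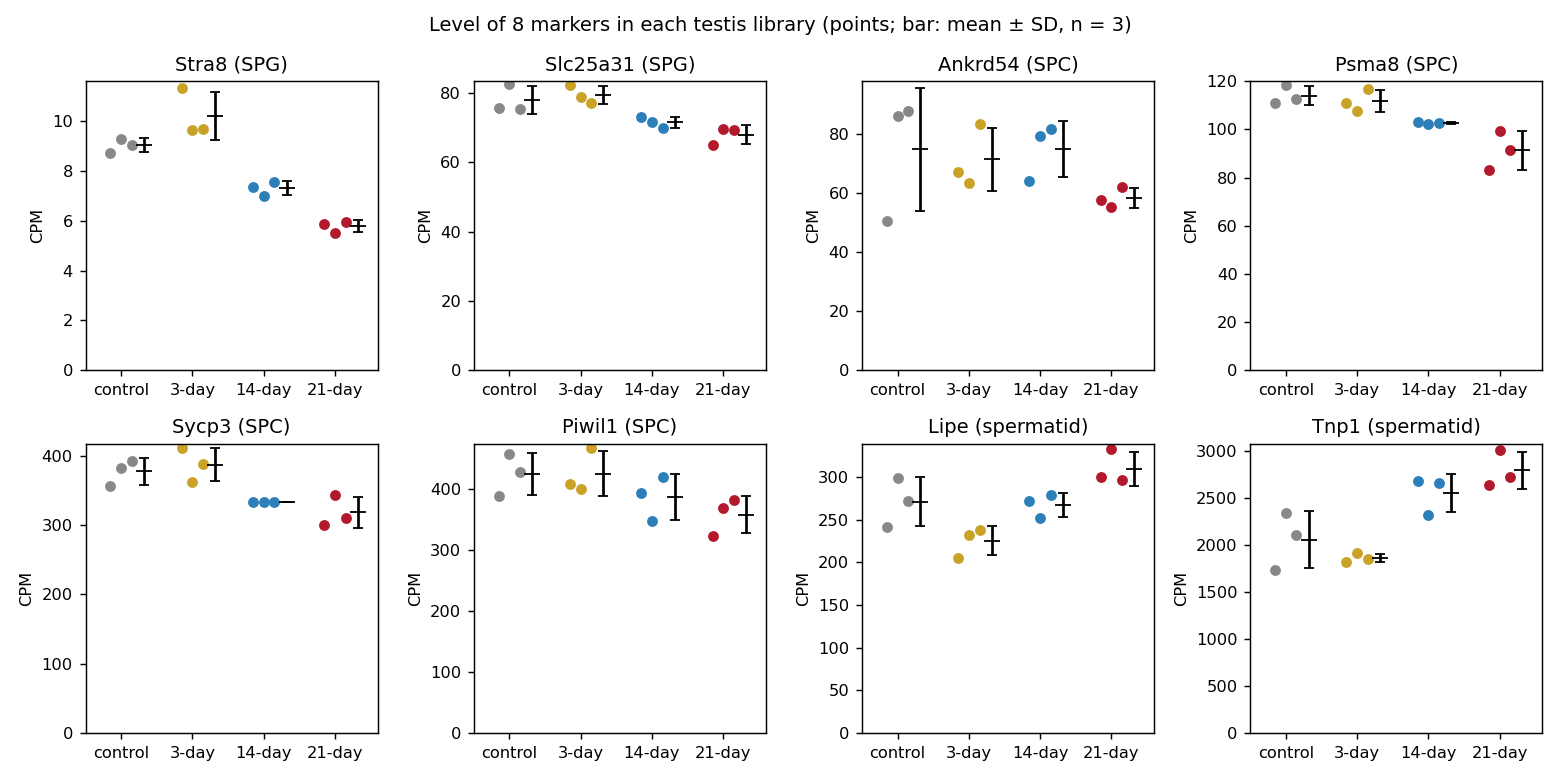
Level in CPM (y axes, from 0) of Stra8, Slc25a31, Ankrd54, Psma8, Sycp3, Piwil1, Lipe and Tnp1 in each testis library of the control, 3-day, 14-day and 21-day groups (x axes). Points are libraries and bars the mean ± SD (n = 3). The 14-day and 21-day points are apart in Stra8 (7.01 to 7.58 against 5.53 to 5.98 CPM), Slc25a31, Ankrd54, Psma8 and Lipe and overlap in Sycp3, Piwil1 and Tnp1.

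Grouped by function, no list had a member with an adjusted p under 0.05. All 12 genes of the meiotic cell cycle list had fold changes below 0 (median -0.10), from Ddx4, a germ cell RNA helicase gene, at -0.04 to Stra8 at -0.33. Of these, 2 (Stra8 and Spdya) had an unadjusted p under 0.05, and 3 (with Shcbp1l) did not overlap. Over all features, 1.35% were lower at that threshold and 4.86% were lower without overlap. The study chose this list on these samples as genes that were lower under stress, so its direction is not independent evidence. In the 20 cell division genes, which overlap with that list, 13 were below 0 and 7 above, with a median of -0.04. Cdc20, the activator of the anaphase-promoting complex, was the lowest, with 84.1, 91.4 and 91.7 CPM at 14 days and 68.1, 81.5 and 88.5 CPM at 21 days (log2 fold change -0.16, and -0.06 without the first 21-day library), and its groups overlapped. All 5 genes of small RNA pathways and the chromatoid body, a germ cell RNA granule, were below 0 with a median of -0.05, from Ddx25 at -0.03 to Piwil1 at -0.11. Of them 0 passed the unadjusted threshold, against 3.05% of all features. Of all SPG and SPC markers only 25% and 24.3% were above 0, so signs below 0 prevailed in these classes as a whole.

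The spermatid lists lay closer to 0 or above it. Of 7 chromatin condensation genes, 6 were above 0 (median 0.13), with Tssk6, a testis-specific kinase gene, highest at 221, 209 and 199 CPM against 196, 284 and 254 CPM (log2 fold change 0.22) and the linker histone variant gene Hils1 lowest at -0.06. The first 21-day library was the lowest of all 6 for Tssk6 and the second the highest, and without them the log2 fold change was 0.36 and 0.11 in turn. Only Hmgb4 of this list did not overlap (536, 536 and 557 CPM against 573, 661 and 569 CPM, unadjusted p = 0.0607 by edgeR). Of all spermatid markers 74.5% were above 0, and of all features 8.61% did not overlap. The 21 genes of the acrosome and sperm surface had a median of 0.0028, from Eqtn at -0.09 to Plcz1, the sperm phospholipase that activates the egg, at 0.09, with 11 above and 10 below 0. The 27 flagellum genes had a median of 0.01, from Tekt1, a microtubule protein gene of the axoneme, at -0.07 to Odf1, of the outer dense fibres, at 0.16 (0.06 without the second 21-day library), with 16 above and 11 below. In neither list did any gene separate the groups, against 8.61% of all features.

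The lists that cross the classes gave similarly small values. The 13 energy metabolism genes had a median of 0.02, from the cytochrome oxidase subunit gene Cox8c at -0.11 to Mdh1b at 0.27. Of them 3 did not overlap (Got1l1 and Mdh1b higher, Slc25a31 lower), against 8.61% of all features. The 19 chaperone genes had a median of 0.04, from Hspa2, needed by meiotic spermatocytes, at -0.09 to Dnajb8 at 0.13. The 25 genes of ubiquitin and the proteasome had a median of 0.04, from Psma8 at -0.17 to Ubqlnl at 0.18. The 14 lipid genes had a median of 0.05, from Bscl2, a gene of lipid droplet formation, at -0.03 to Lipe at 0.22. Of them 11 were above 0, against 57.8% of all markers and 74.5% of spermatid markers.

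The transcripts that moved furthest were not markers and carry no gene name here. Those described by identifier were chosen by smallest p among unnamed features without overlap, at most 2 per direction, and not by size of change. Across all features, 5 had no count in any 14-day library and at least 10 in every 21-day library, and 1 showed the reverse. ENSRNOT00000075193.2, the feature of the smallest adjusted p (0.0898 by edgeR), had 117, 131 and 146 counts at 14 days and 0, 0 and 0 at 21 days, at least 44.2-fold lower against a floor of 3 counts per library. It was at 13, 47 and 61 counts in the controls and 96, 88 and 77 counts at 3 days. ENSRNOT00000086928.1 had 0, 0 and 0 counts at 14 days and 42, 26 and 32 at 21 days, at least 11.1-fold higher, but was also at 0 in 1 control and 2 of the 3-day libraries and reached 45 counts in the other. Presence or absence of that transcript thus varied within groups as well as between them.

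The other 2 transcripts were detected in all 6 libraries. ENSRNOT00000008901.7 had 55.6, 68.9 and 58.6 CPM at 14 days and 104, 97.9 and 98.5 CPM at 21 days, with no overlap (log2 fold change 0.72, SE 0.09, adjusted p = 0.685 by edgeR). Its controls held 88.6, 91.4 and 88.1 CPM and its 3-day libraries 90.6, 62.8 and 53.2 CPM, so the 21-day level lay nearer to that of the controls than the 14-day level did. ENSRNOT00000090192.1 had 100, 74 and 70 counts at 14 days and 24, 20 and 15 at 21 days (log2 fold change -2.05, adjusted p = 0.916 by edgeR). One of its control libraries had no count.

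Set beside the other steps of the time course, the step from day 14 to day 21 had the smallest values by several measures. The 6 comparisons share libraries, so their values are given side by side and no test was run between them. The median absolute log2 fold change over all features was 0.10 from day 14 to day 21, 0.14 from day 3 to day 14, 0.11 from control to day 3, 0.16 from control to day 14, 0.17 from day 3 to day 21 and 0.18 from control to day 21. Over markers it was 0.06, 0.11, 0.06, 0.09, 0.15 and 0.13 in the same order. No marker differed by more than 0.5 log2 units between day 14 and day 21 or between control and day 3, whereas 4 did between day 3 and day 14. Features without overlap between groups made 8.61% of those tested from day 14 to day 21, 20.6% from day 3 to day 14 and 9.83% from control to day 3. If labels made no difference, a feature measured in 3 against 3 libraries would fail to overlap with a probability of about 0.1. The shares of 8.61% and 9.83% did not exceed that, so they do not count features that changed.

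By class, the SPG and spermatid medians were larger from day 3 to day 14 than from day 14 to day 21, and the SPC medians were not. From day 3 to day 14 the class medians were -0.18 (SPG), -0.04 (SPC) and 0.14 (spermatid), and 178 of 385 spermatid markers were higher at an unadjusted p under 0.05, against 7.73% of all features higher. From day 14 to day 21 the medians were -0.06, -0.04 and 0.04, and 4 spermatid markers were higher, against 1.71% of all features. For SPG markers 6 of 12 were lower at the unadjusted threshold in the earlier step (5.65% of all features) and 1 in the later step (1.35%). For SPC markers 21 of 181 (11.6%) were lower at that threshold in the earlier step and 5 (2.76%) in the later step. Higher SPC markers numbered 0 and 1, so fewer SPC markers passed it in the later step although the medians were alike. From control to day 3 the medians were -0.08, 0.0062 and -0.04. Against control the medians were -0.26, -0.03 and 0.10 at day 14 and -0.33, -0.07 and 0.15 at day 21. In the first control library the mean log2 CPM was 4.988 for SPG and 7.001 for spermatid markers. It was 4.664 and 4.69 (SPG) and 7.229 and 7.153 (spermatid) in the other controls. For SPG markers these other controls still lay above every 14-day and 21-day library, which reached at most 4.527. For spermatid markers they overlapped with both groups. The medians against control were not recomputed without the first control library. The earlier step spans more days than the later, and both use the same 14-day libraries.

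Over all features tested, libraries of different duration were on average no farther apart than libraries of the same duration. The root mean square difference of log2 CPM over the features tested was 0.643 on average between a 14-day and a 21-day library (9 pairs, 0.584 to 0.707), 0.621 within the 14-day group (3 pairs, 0.611 to 0.626) and 0.696 within the 21-day group (3 pairs, 0.640 to 0.748). The mean between groups minus the mean within groups was -0.02, and the exact one-sided permutation test over the 10 splits gave p = 1, where 0.1 is the smallest possible. The difference was above 0 without the second 21-day library (0.0136, exact permutation p = 0.3) and without the third (0.00321, exact permutation p = 0.5). Of the 3 pairs within the 21-day group, those with the first 21-day library were at 0.748 and 0.699 and the pair without it at 0.640. This distance weighs all features alike, and the median SE was 0.40 in the lowest of the 4 abundance sets against 0.07 in the highest. The mean distance of a library to the others was 0.624 to 0.704 over all features but 0.155 to 0.215 over markers. A small shift could therefore be hidden by noise in weakly expressed features, and the distance cannot show its absence.

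**Figure D5:**
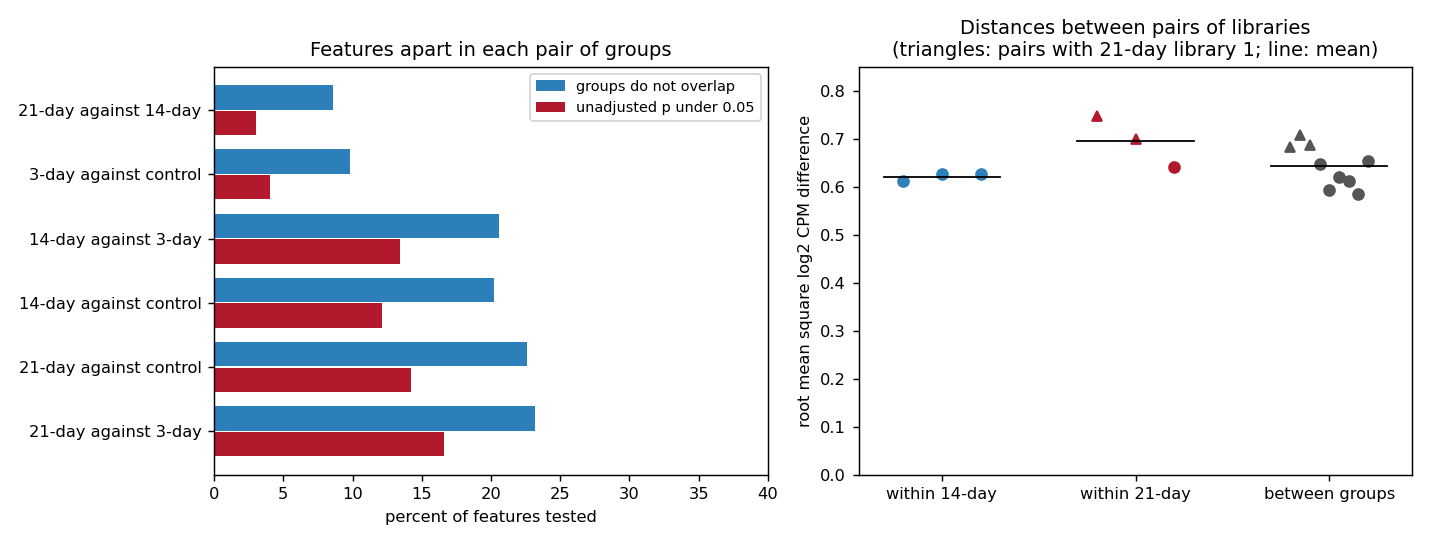
Left, the percentage of features tested (x axis) that had no overlap between groups or an unadjusted p under 0.05, for the 6 pairs of groups (y axis). Right, the root mean square log2 CPM difference (y axis) of each pair of libraries within the 14-day group, within the 21-day group and between them, each symbol a pair (triangles, pairs with the first 21-day library) and each line a mean. The bars for 21-day against 14-day, 8.61% and 3.05%, are the shortest of the 6, and the distances between groups, 0.584 to 0.707, overlap with those within the 21-day group, 0.640 to 0.748.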

How the data were processed

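Total RNA of rat testis was depleted of ribosomal RNA and sequenced as paired-end directional libraries. The submitters' processing notes and the study's methods name Trimmomatic, HISAT2, HTSeq and the build Rnor_6.0 (rn6), with no versions. The authors deposited, per library, estimated counts, lengths, effective lengths and TPM for 31715 Ensembl transcripts. These values refer to transcripts and many are fractional, whereas HTSeq counts whole reads, so the tool that made these tables is not given in the sources used here. TPM values, scaled by the authors to effective length, were used only to settle identities and to check the counts.

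The markers and gene lists were chosen with earlier results of these data known. All 578 markers were matched by their counts in the 12 libraries, within 1 count; 425 matched a single transcript, 150 a run of transcripts and 3 a pair of runs, and 48 with several candidates were settled by TPM. No transcript outside the markers could be named, so the lists of somatic and stress genes were not used here.

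Estimated counts were rounded, filtered with filterByExpr, scaled by TMM and tested with edgeR 4.0.16 (quasi-likelihood, Benjamini-Hochberg over all features, threshold 0.05) on the 6 libraries, after the code was tested on simulated data. Levels are CPM with TMM factors over all 12 libraries, and distances used a prior count of 2. The 95% intervals came from limma 3.58.1 (voom). Alternatives included DESeq2 1.42.0 (R 4.3.3), run without filterByExpr. Depth sets the counting error, and a count of 0 was taken as below 3 counts. Named genes were Stra8, Sycp3, Piwil1, Tnp1 and Tnp2, the 12 SPG markers, markers with an unadjusted p under 0.05, the highest and lowest member of each list, and at most 2 unnamed transcripts per direction, those of smallest p among features without overlap. Shcbp1l, Hmgb4, Got1l1 and Zdhhc19 were named after their values were seen.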

Additional observations from a re-analysis of the deposited data

How the results depend on the processing

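No marker passed the adjusted threshold in any of the alternatives. The number of features called, 0 in edgeR's fit of the 6 libraries, was 1 with no filter on low counts, 1 with all 12 libraries in one fit, 3 with limma voom and 20 with DESeq2. Markers at an unadjusted p under 0.05, 11 in that fit, numbered 32 with library totals alone, 56 with markers alone and 25 (18 higher, 7 lower) with DESeq2. With markers alone 25 were higher and 31 lower. These were 1 higher and 28 lower among SPC, 24 and 2 among spermatid, and 0 and 1 among SPG markers. That fit holds no other features to compare them with. Leaving out 1 library at a time gave 5 to 35 such markers, 509 to 1388 such features, and class medians of -0.075 to -0.039 (SPG), -0.082 to -0.0058 (SPC) and 0.0014 to 0.094 (spermatid). The distance between minus within groups ranged from -0.0379 to 0.0136 and changed sign without the second or the third 21-day library, 0.00321 without the third. The cause of these changes was not tested. Weakly expressed transcripts are limited by depth.

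Replicate numbers recur across groups, but same-numbered libraries did not deviate together (correlations 0.0597, 0.0515 and -0.122), and 2 of the 3 14-day libraries correlated best with another number. With the number as a replicate block, 7 markers (2 higher, 5 lower) and 495 features had an unadjusted p under 0.05 and 0 an adjusted one; Stra8, Psma8, Spdya, Mdh1b, Iqcf3 and Ubqlnl then had unadjusted p-values of 0.0512, 0.0646, 0.0525, 0.0526, 0.0589 and 0.0928.

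Of 626 values of 39 named genes under the alternatives, 604 kept their direction and 22, in 11 genes, did not. Cited1 was at -0.00219 with library totals alone and at -0.022 with markers alone. The other reversals came with 1 library left out, over which the log2 fold change ranged from -0.104 to 0.026 for Ddx25, -0.0707 to 0.0124 for Bscl2, -0.0885 to 0.0063 for Hspa5, -0.0814 to 0.143 for Rac1, -0.108 to 0.0159 for Tex19.1, -0.0712 to 0.186 for Tnp2, -0.097 to 0.0687 for Cited1, -0.0939 to 0.0518 for Elavl2, -0.132 to 0.018 for Hils1, -0.0179 to 0.546 for Ccnd1 and -0.137 to 0.0379 for Nucks1.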

Other observations

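The 5 markers furthest above the other 5 libraries in the first 21-day library, relative to the next highest, were chosen after their values were seen: Ccnd1, Rasa3, Actg2, Ppp3ca and Rac1. Ccnd1 was at 16.4 CPM there against at most 9.77 CPM in the other libraries of the 2 groups, and at 15.3 CPM in the first control library. Actg2, the enteric smooth muscle actin gene, was at 8.31 CPM against at most 6.87 CPM, and at 9.65 CPM in the first control library. Rac1 was at 32 CPM against at most 28.3 CPM, and at 37.4 CPM in the first control library.

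The 14-day spread of Sycp3 was also singled out after its values were seen. Its coefficient of variation over the 3 14-day libraries was 0.0655%, below the 1.08% that counting alone gives at a mean of 8574 counts. Of 2182 features with a mean of at least 100 CPM in every group, 1 had a smaller value in the 14-day group, where the median was 4.22%. In the control, 3-day and 21-day groups the coefficient for Sycp3 was 5.03%, 6.27% and 7.12%.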
